A study of Bos taurus with 13 samples.

Results

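The genes of DNA methylation were followed in blood RNA of dairy cows ranked by the cortisol in their milk. They were chosen by gene name from the biology of the pathway, as 9 names covering the enzymes that write and erase cytosine methylation and the proteins that read it. Of these, 8 were found among the 16095 named genes of the count tables and all 8 passed the filter on low counts, which left 11033 genes to test. The methyl-CpG reader *MBD2* was not found under that name and was not analysed here, so *UHRF1* was the only protein of the set that reads methylation. The samples were blood from the tail vein of 13 lactating cows labelled Italian Red Pied, with 7 in the high group (numbered 1 to 7 as replicates) and 6 in the low group (numbered 8 to 13). The groups are tails of a ranking by cortisol in milk on 1 farm, with no treatment, so a group is a range of measured cortisol and not an intervention.

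DNA methylation in mammals is set mainly at cytosines followed by guanine. *DNMT3A* and *DNMT3B* place new marks, and *DNMT1* copies existing marks to the daughter strand after replication, brought there by *UHRF1*, which binds hemimethylated DNA. The TET enzymes oxidise methylcytosine with oxygen, iron and 2-oxoglutarate, and *TDG* cuts out the most oxidised forms so that base excision repair restores an unmodified cytosine. In blood, *DNMT3A* and *TET2* are known as genes whose mutation lets clones of haematopoietic stem cells expand.

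Each library held from 11045599 to 28124575 counts on genes with a name. Levels are given as CPM, the count of a gene scaled to a common library size, with TMM factors that correct for differences in library composition. Defining markers of the blood cell types were present, with *CSF3R* of neutrophils at 2122 CPM or more and *CD3E* of T cells at 769.8 CPM or more in each cow. One library stood apart from the rest. On the first principal component of log2 CPM, which held 29.1% of the variance, replicate 4 of the high group scored 62.6 and the other 12 cows between -31.5 and 19.3. This cow was the highest of the 13 for 27.9% of the genes tested and the lowest for 23.8%, while each other cow was the highest for 2.47% to 11.6%. Its depth (14298265 counts) and haemoglobin share (0.0968%) lay within the range of its group, and results that rest on it are given with and without it.

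The order of the levels was compared per kilobase of exon, since longer transcripts collect more reads. *DNMT3A* (chromosome 11 of UMD3.1 from 74030425 to 74059688) was the most abundant, at 15.4 CPM per kilobase ± 2.00 (SD, n = 13). *DNMT1* (chromosome 7, 15913446 to 15956917) followed at 12.0 ± 1.27 and *TDG* (chromosome 5, 67973222 to 67994056) at 9.59 ± 2.50 CPM per kilobase. *DNMT3B* (chromosome 13, 62700411 to 62721124) and *UHRF1* (chromosome 7, 20436670 to 20469912) had 5.61 ± 1.69 and 5.51 ± 1.37 CPM per kilobase. The TET genes came last, with 3.75 ± 2.71 for *TET2* (chromosome 6, 21176966 to 21218829), 1.57 ± 0.653 for *TET3* (chromosome 11, 10546064 to 10646706) and 0.521 ± 0.183 CPM per kilobase for *TET1* (chromosome 28, 25073149 to 25191276). Among all genes tested, these levels ran from the 54.8th percentile for *DNMT3A* down to the 4.75th for *TET1*. No exon of another named gene overlapped an exon of the 8 genes.

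**Figure D1:**
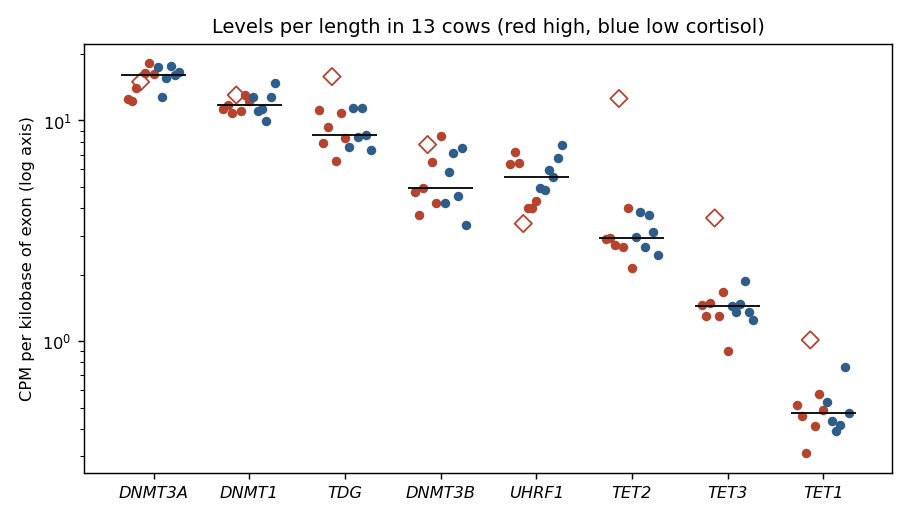
CPM per kilobase of exon (log axis) of the 8 genes in each of the 13 cows, ordered by mean, with red points for the high group, blue points for the low group, a line at the median and an open diamond for replicate 4 of the high group. *DNMT3A* and *DNMT1* lead, the TET genes are lowest, and the diamond lies far above the other cows for *TET2* and *TET3*.

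Neighbours in this order were compared within cows by an exact two-sided sign-flip test of log2 levels per kilobase, with Benjamini-Hochberg adjustment over the 7 neighbouring pairs. Each gene was divided by the same exon length in every cow. The order thus rests on these exon models, which the p-values cannot assess. By mean CPM without this division, *DNMT1* (62.2) lay above *DNMT3A* (44.5), and *TET2* (22.1) lay above *DNMT3B* (14.9). *TET2*, *TET3* (7.92) and *TET1* (3.54) kept their order. Per kilobase, *DNMT3A* exceeded *DNMT1* in 13 of 13 cows, by 0.36 ± 0.21 on the log2 scale (SD, n = 13). The exact p was 2.4e-04, the smallest this test can give, and the adjusted p 5.7e-04. *TET2* exceeded *TET3* by 1.15 ± 0.26 and *TET3* exceeded *TET1* by 1.58 ± 0.42, each in 13 of 13 cows and with the same p-values. *DNMT1* lay above *TDG* in 10 cows (exact p = 0.00928, adjusted 0.0130), *TDG* above *DNMT3B* in 12 (exact p = 7.3e-04, adjusted 0.00128) and *UHRF1* above *TET2* in 12 (exact p = 0.0208, adjusted 0.0242). *DNMT3B* and *UHRF1* were not separated, with *DNMT3B* higher in 7 of 13 cows and a mean difference of 0.01 ± 0.70 on the log2 scale (exact p = 0.962). From the highest, *TET1* had rank 8 within all 13 cows and *TET2* rank 6 within 12 of them. In replicate 4 of the high group *TDG* had rank 1, *TET2* rank 4 and *UHRF1* rank 7.

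Sums over the families show the same cow from another side. The 3 DNMT genes together had between 27.7 and 37.0 CPM per kilobase in the 13 cows, with 35.8 in replicate 4 of the high group. The 3 TET genes together had between 3.53 and 6.24 CPM per kilobase in the other 12 cows and 17.2 in that cow. The TET sum was thus 9.54% to 19.0% of the DNMT sum in 12 cows and 48.1% in replicate 4. Within the TET sum, *TET2* made up 58.8% to 73.1% in all 13 cows.

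Whether the genes differed with milk cortisol was asked by comparing the high with the low group, with edgeR's quasi-likelihood test and Benjamini-Hochberg adjustment over all 11033 genes. None of the 8 genes passed, with 0 at an adjusted p of 0.05 (all 0.998) and 0 at an unadjusted p below 0.05. DESeq2 and limma-voom also gave 0 at an unadjusted p below 0.05. Over all genes tested, edgeR gave 2.09% at an unadjusted p below 0.05 (0.934% higher and 1.16% lower in the high group) and 0% at an adjusted p of 0.05, while DESeq2 gave 2.43% and limma-voom 1.98% at an unadjusted p below 0.05. The groups overlapped for all 8 genes, as they did for nearly all genes, since 0.0453% of those tested did not overlap. Exact two-sided permutation tests on log2 CPM, which used each of the 1716 ways to divide the cows, gave p between 0.207 and 0.854 for the 8 genes. Values below are CPM, fold changes are log2 of high over low, and the 95% intervals are from edgeR's standard error and degrees of freedom.

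Among the writers, *DNMT1*, the maintenance methyltransferase, ran from 56.3 to 67.7 CPM in the high group (median 60.7) and from 51.8 to 76.5 in the low group (median 62.5). The low range enclosed the high range. Its mean was 61.6 CPM ± 4.76 (SD, n = 7) in the high and 62.8 CPM ± 8.76 (SD, n = 6) among low cows. *DNMT1* had a log2 fold change of -0.03 (95% interval -0.24 to 0.19, unadjusted p 0.776 from edgeR). *DNMT3A*, which methylates unmarked DNA, ran from 35.2 to 52.2 CPM in the high group (median 43.1) and from 36.7 to 51.0 in the low group (median 47.0). Replicates 1 and 2 of the high group were its lowest cows, at 36.1 and 35.2 CPM. Its log2 fold change was -0.10 (95% interval -0.35 to 0.14, unadjusted p 0.382 from edgeR), and 5 of 7 high cows lay below the low median.

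*DNMT3B*, the other enzyme that methylates unmarked DNA, varied more than its relatives. It ran from 9.93 to 22.6 CPM in the high group (median 13.1) and from 8.95 to 19.9 in the low group (median 13.8). High values were found in both groups, at 22.6 and 20.7 CPM in replicates 7 and 4 of the high group and 19.9 and 18.9 CPM in replicates 12 and 10 among the low cows. The log2 fold change of *DNMT3B* was 0.09 (95% interval -0.39 to 0.58, unadjusted p 0.697 from edgeR), and the sign was negative with the haemoglobin share of the counts as a covariate (-0.33). *UHRF1*, which guides *DNMT1* to newly copied DNA, ran from 13.3 to 28.1 CPM in the high group (median 16.8) and from 19.0 to 30.3 in the low group (median 22.5). In the high group replicates 1, 2 and 3 had 24.8, 28.1 and 25.1 CPM, and the other 4 cows had 13.3 to 16.8 CPM, below every low cow. These 4 cows were picked by their level, and the share of all genes with such a split is not given. The log2 fold change of *UHRF1* was -0.23 (95% interval -0.63 to 0.17, unadjusted p 0.235 from edgeR), or -0.15 without replicate 4 of the high group.

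**Figure D2:**
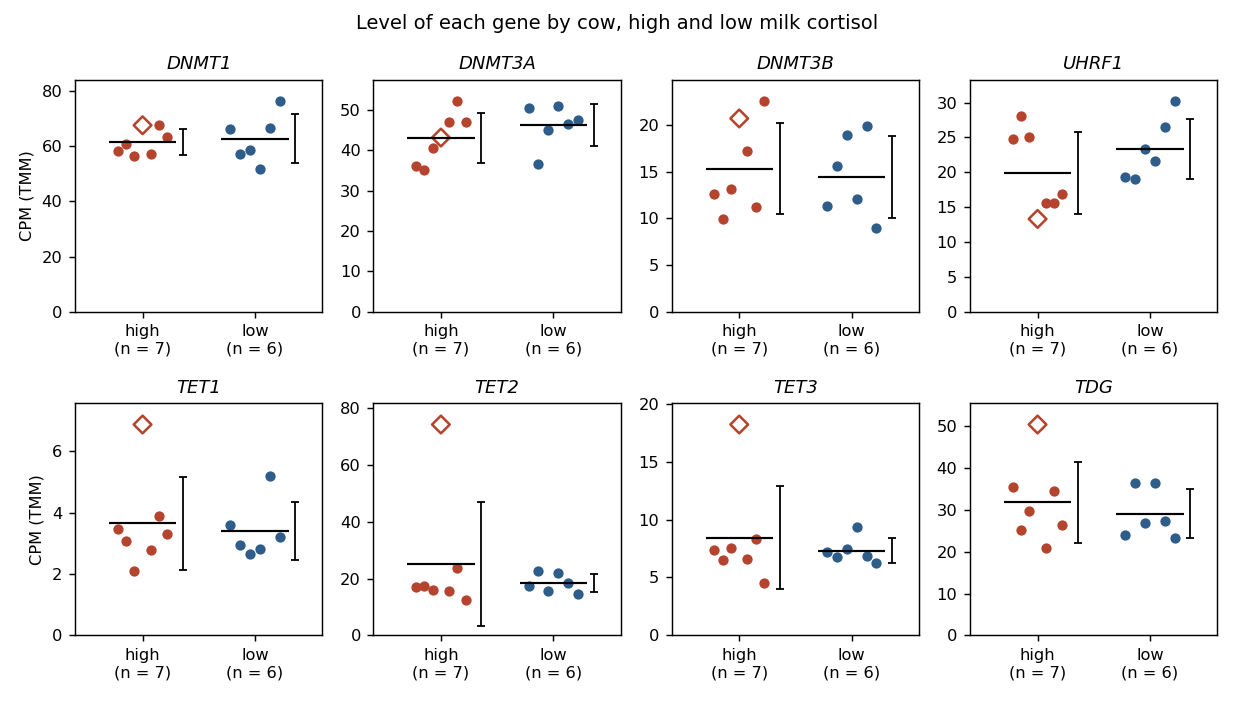
CPM (TMM) of each gene in each cow, red for the high group (n = 7) and blue for the low group (n = 6), with a line at the mean and a bar for the SD beside it; the open diamond is replicate 4 of the high group. The groups overlap in every panel, and the diamond is the top value of *TET1*, *TET2*, *TET3* and *TDG* and the lowest of *UHRF1*.

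Among the erasers, *TET2*, the most abundant TET gene in these cows, ran from 12.6 to 74.2 CPM in the high group (median 17.2) and from 14.6 to 22.6 in the low group (median 17.9). Replicate 4 alone made the high range wide. It had 1154 counts of *TET2* (74.2 CPM, 95% Wilson interval 70.0 to 78.6, counting error only), 4.303 times the median of the other 12 cows, while the next cow, replicate 6 of the high group, had 23.6 CPM. *TET3* ran from 4.52 to 18.2 CPM in the high group (median 7.33) and from 6.27 to 9.40 in the low group (median 7.02). Its 18.2 CPM in replicate 4 (283 counts, Wilson interval 16.2 to 20.4) was 2.59 times the median of the others. *TET1* ran from 2.10 to 6.88 CPM in the high group (median 3.32) and from 2.67 to 5.20 in the low group (median 3.09), on 26 to 107 counts per cow. Replicate 4 again had the top value, 6.88 CPM (Wilson interval 5.69 to 8.31), and replicate 12 of the low group the second, 5.20 CPM.

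*TDG*, the glycosylase that completes the removal, ran from 20.8 to 50.3 CPM in the high group (median 29.8) and from 23.3 to 36.4 in the low group (median 27.1). Replicate 4 was also highest here, at 50.3 CPM (Wilson interval 46.9 to 54.0) or 1.86 times the median of the other cows, and replicate 5 of the high group was lowest. With all cows, the log2 fold changes were 0.45 for *TET2* (95% interval -0.30 to 1.19), 0.19 for *TET3* (-0.36 to 0.75), 0.10 for *TET1* (-0.45 to 0.66) and 0.13 for *TDG* (-0.27 to 0.52), with unadjusted p from 0.224 to 0.703 (edgeR). On the same 13 cows limma-voom gave smaller values, 0.15 for *TET2* (standard error 0.31), 0.032 for *TET3* (0.25), 0.072 for *TET1* (0.24) and 0.083 for *TDG* (0.18). Without replicate 4 of the high group, all 4 turned negative, at -0.11 for *TET2* (standard error 0.16), -0.11 for *TET3* (0.17), -0.12 for *TET1* (0.22) and -0.02 for *TDG* (0.16), with unadjusted p from 0.480 to 0.906. The mean of *TET2* in the high group fell from 25.3 CPM ± 21.8 (SD, n = 7) to 17.1 CPM ± 3.62 (SD, n = 6) when that cow was left out, beside 18.5 CPM ± 3.29 (SD, n = 6) in the low group.

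**Figure D3:**
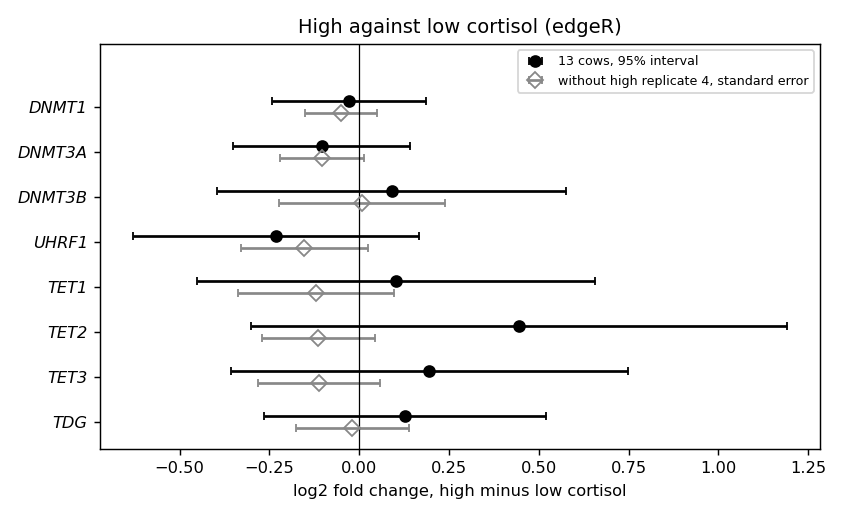
Log2 fold change of each gene, high minus low cortisol, from edgeR: filled circles with 95% intervals are from 13 cows, and open diamonds with standard errors are without replicate 4 of the high group. All intervals cross 0, and the erasers *TET1*, *TET2*, *TET3* and *TDG* move from above to below 0 without that cow.

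Replicate 4 of the high group differed from the others over much of the transcriptome. In that cow 13.2% of all genes tested lay more than 2-fold from the median of the other cows, against 1.87% to 5.12% in each other cow. *TET2* was 2.10 higher on the log2 scale, at the 99.5th percentile of all genes tested in that cow. *TET3* was at the 95.8th percentile, *TET1* at the 91.9th and *TDG* at the 87.5th, while *UHRF1* was 0.75 lower, at percentile 6.52. Its deviation rose with exon length across genes (Spearman's rho 0.162, genes not being independent replicates), but so did those of replicate 6 of the high group (0.237) and replicate 8 of the low group (0.192), and over the 12 other cows rho ran from -0.162 to 0.237. With the genes in 5 groups of equal number by length, the median deviation of replicate 4 was -0.09 in the shortest and 0.23 in the longest, of 3289 bases or more, which holds the 3 TET genes (5031 to 6793 bases) and also *DNMT1* (5185 bases) and *UHRF1* (3902 bases). *DNMT1*, of similar length to *TET3*, was at 1.13 times the median of the other cows. The part of exon length in these values was not tested.

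Spread among cows separated the genes as well. The coefficient of variation over 13 cows was 10.6% for *DNMT1* and 13.0% for *DNMT3A*, at the 8.58th and 17.4th percentiles of all genes tested (median gene 21.4%). It was 24.8% for *UHRF1*, 26.1% for *TDG*, 30.1% for *DNMT3B* and 35.2% for *TET1*. *TET3* had 41.5% and *TET2* 72.2%, the latter at the 97.8th percentile. Without replicate 4 of the high group, *TET2* dropped to 19.0% and *TET3* to 16.7%, at the 50.4th and 41.7th percentiles, and *DNMT3B* was then the most variable of the 8 at 29.97%. Counting error alone would give between 2.98% (*DNMT1*) and 12.6% (*TET1*).

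Co-variation was tested for the 28 pairs of the 8 genes over 13 cows, with two-sided permutation tests of 100000 resamples and Benjamini-Hochberg adjustment over the pairs. Only pairs among *TET2*, *TET3* and *TDG* passed an adjusted p of 0.05 for Pearson's r with all cows, and 0 pairs passed without replicate 4 of the high group. *TET2* and *TET3* had r = 0.934 (permutation p = 2.6e-04, adjusted 0.00602) and Spearman's rho = 0.637 (permutation p = 0.0229, adjusted 0.160). Without the 2 cows farthest from the median of *TET2*, replicates 4 and 7 of the high group, r was 0.603. It was 0.968 within the high group, which holds replicate 4 (exact p = 0.00317, adjusted 0.0750), and 0.526 within the low group (exact p = 0.307, adjusted 0.780). No pair passed an adjusted p of 0.05 within either group. Without replicate 4 alone, r was 0.745 (permutation p = 0.00470, adjusted 0.132).

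*TET2* and *TDG* had r = 0.812 (permutation p = 4.3e-04, adjusted 0.00602) and rho = 0.703 (permutation p = 0.00943, adjusted 0.104). Without the same 2 cows r was 0.752, and without replicate 4 alone 0.691 (permutation p = 0.0133, adjusted 0.187). Within the groups r was 0.829 in the high (exact p = 0.0185, adjusted 0.172) and 0.923 in the low group (exact p = 0.0236, adjusted 0.331). *TET3* and *TDG* had r = 0.760 (permutation p = 0.00310, adjusted 0.0289) and rho = 0.687 (permutation p = 0.0112, adjusted 0.104), and r was 0.655 without the 2 farthest cows. Within the groups r was 0.825 (high, exact p = 0.0331, adjusted 0.178) and 0.573 (low, exact p = 0.236, adjusted 0.780). It was 0.509 without replicate 4 (permutation p = 0.0856, adjusted 0.599), and its adjusted p was also above 0.05 without the high replicate 6 (0.0568) or the low replicate 11 (0.0931).

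**Figure D4:**
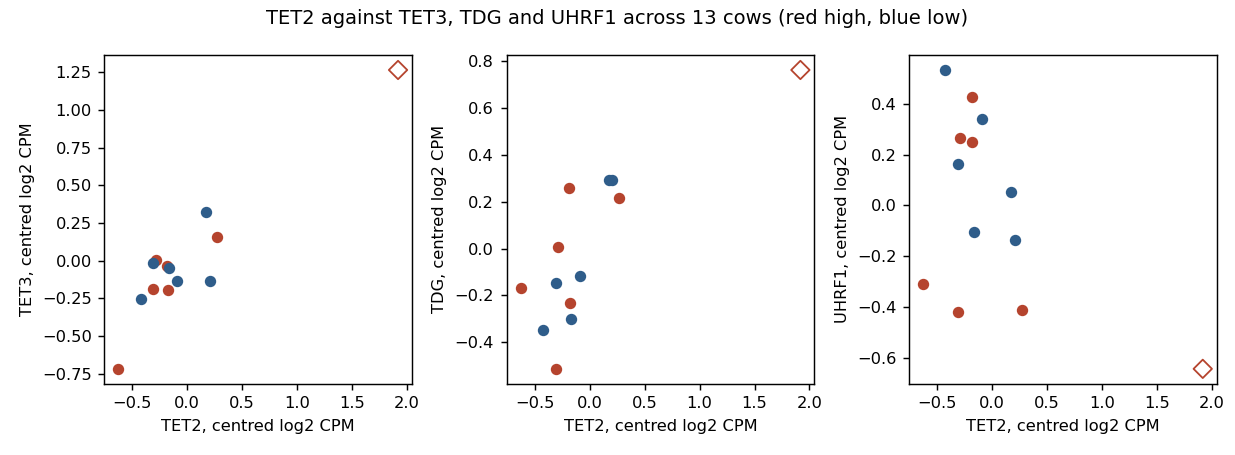
Centred log2 CPM of *TET2* (horizontal) against *TET3*, *TDG* and *UHRF1* (vertical) in 13 cows, red for the high and blue for the low group, with an open diamond for replicate 4 of the high group. That cow lies at the end of all 3 panels, and among the other 12 cows r of *TET2* and *TDG* is 0.691 (adjusted permutation p = 0.187).

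These genes also followed the first principal component, which summarises all genes tested and so includes them. The correlation with its score over 13 cows was 0.942 for *TDG*, 0.871 for *TET2* and 0.765 for *TET3*, and 0.907, 0.645 and 0.336 when replicate 4 of the high group was left out. After that component was removed, an analysis added after the data were seen, *TET2* and *TET3* kept r = 0.846 (permutation p = 2.0e-04, adjusted 0.00560). *TET2* and *TDG* then had r = -0.0508, and *TET3* and *TDG* 0.182. None of the 8 genes was related to the depth of the library (permutation p from 0.310 to 0.673, 0.640 or more adjusted over the 8).

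Pairs of writers had lower values. *DNMT1* and *DNMT3A* had r = 0.298 and *DNMT3A* and *DNMT3B* 0.0482, with adjusted permutation p of 0.597 and 0.960. *DNMT1* and *TET1* had r = 0.569 (permutation p = 0.0417, adjusted 0.195) and rho = 0.742 (permutation p = 0.00504, adjusted 0.104). Their r was 0.814 within the high group (exact p = 0.00536, adjusted 0.0750) and 0.482 within the low group (exact p = 0.346, adjusted 0.780). Without the 2 cows farthest from the median of *DNMT1*, replicates 11 and 13 of the low group, r was 0.812. *UHRF1* had negative r with 6 of the other 7 genes, down to -0.549 with *TET2* (permutation p = 0.0309, adjusted 0.173), and this value was -0.200 without replicate 4 of the high group. Without that cow, r of *UHRF1* was 0.077 with *TET3*, -0.006 with *TET1* and -0.057 with *TDG*. It was then -0.408 with *DNMT3A*, -0.377 with *DNMT3B* and 0.183 with *DNMT1*. The steadiest ratio of the 28 was that of *DNMT3A* to *DNMT1*, with an SD of the log2 ratio of 0.21, and it lay between 1.04 and 1.77 per kilobase in the 13 cows.

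**Figure D5:**
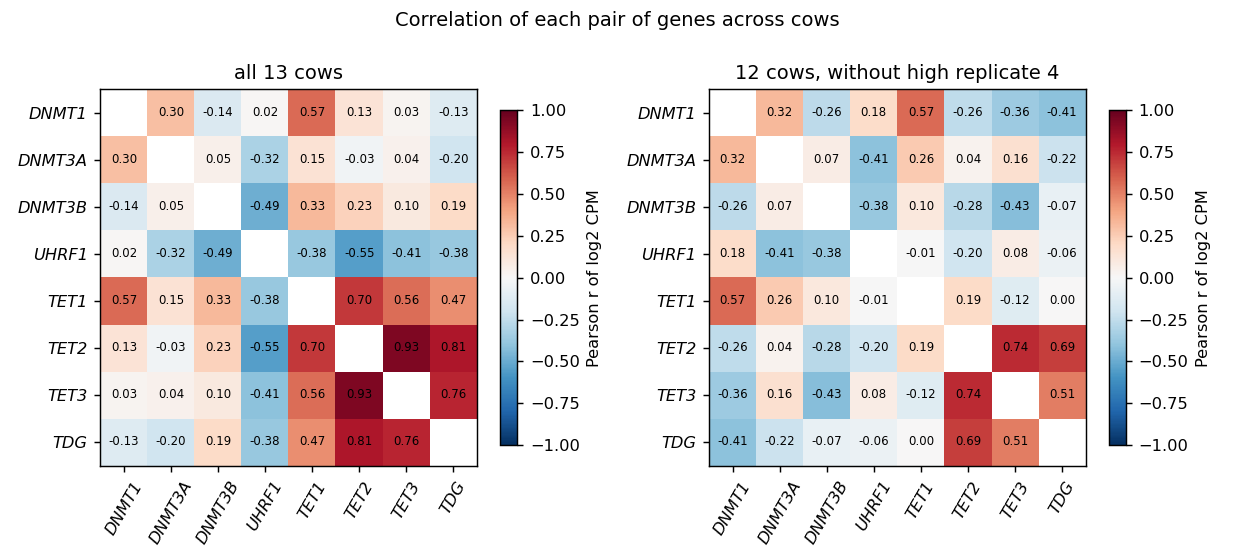
Pearson's r of log2 CPM for the 28 pairs of genes, over 13 cows on the left and over 12 cows without replicate 4 of the high group on the right, with the colour scale from -1 to 1. The block of *TET2*, *TET3* and *TDG* keeps positive values on both sides, while the values of *TET1* with that block go from 0.47 to 0.70 on the left to -0.12 to 0.19 on the right.

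Whole blood is a mixture of cells, and in such samples fewer cells of a type and less RNA per cell cannot be told apart. The 8 genes were therefore set beside 9 lists of marker genes, each scored in a cow as the mean centred log2 CPM of the list. Of 72 relations, 0 passed an adjusted p of 0.05 for Pearson's r (smallest 0.642) and 5 had an unadjusted permutation p below 0.05. Chance alone gives about 1 in 20 independent relations such a p. These relations are not independent, and the count was not tested against chance. *DNMT3B* had r = 0.660 with the B cell score (permutation p = 0.0160, rho = 0.610), or 0.793 when replicate 4 of the high group was left out and 0.572 without the 2 cows of the highest B cell score, replicates 5 and 7 of the high group. Within the groups it was 0.548 (high, exact p = 0.209, adjusted 0.758) and 0.833 (low, exact p = 0.0403, adjusted 0.429). *UHRF1* had r = 0.580 with the proliferation score (permutation p = 0.0385, rho = 0.544), which holds genes of dividing cells. Without replicates 12 and 13 of the low group, where that score was highest, r was 0.314. *DNMT3A* had r = 0.566 with the T cell score (permutation p = 0.0456, rho = 0.670) and 0.483 without replicates 11 and 13 of the low group, with 0.974 within the high group (exact p = 0.00159, adjusted 0.114) and 0.279 within the low group (exact p = 0.658). *TET1* had r = -0.648 with the eosinophil score (permutation p = 0.0201, rho = -0.549), or -0.505 without replicate 3 of the high and replicate 9 of the low group. That score rests on 4 of the 7 markers listed, and among them *PRG3* had a mean of only 0.72 CPM. *UHRF1* had r = -0.569 with the erythroid score (permutation p = 0.0371, rho = -0.621), or -0.491 without replicates 5 and 7 of the high group. By rank, *TET2* had the largest values, rho = -0.736 with the cytotoxic and NK cell score and 0.714 with the monocyte score. Their permutation p were 0.00529 and 0.00795 (both adjusted 0.286), and r was -0.428 and 0.502. Without replicate 4 of the high group, r was 0.664 for *TET2* and monocytes (permutation p = 0.0182, adjusted 0.263). It was then 0.662 for *TET3* and neutrophils (permutation p = 0.0173, adjusted 0.263), and 0 relations passed.

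The scores themselves were compared between the groups by the exact permutation test, adjusted over the 9 lists, and 0 passed. The erythroid score was 0.79 higher in the high group on the log2 scale (exact p = 0.0309, adjusted 0.278), with summed erythroid CPM from 388 to 7860.0 in the high and from 143 to 578 in the low group. *HBB* alone reached 7513 CPM in its highest cow, so it made up most of the largest sum. All 9 measured erythroid markers had counts, but *AHSP*, *SLC4A1*, *HBQ1* and *EPB42* had means of only 0.26 to 1.37 CPM, and *AHSP* was at 0 in some cows. With the haemoglobin share as a covariate, none of the 8 genes was called, and the sign turned for *DNMT1* (0.036), *DNMT3B* (-0.33) and *UHRF1* (0.073). The next smallest exact p was 0.202, for the proliferation score.

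The rest of the pathway was followed in 7 lists of 64 genes, of which 61 were in the counts and 60 passed the filter. Of these 60, 1 had an unadjusted p below 0.05, higher in the high group, and 0 were lower or passed an adjusted p of 0.05 (edgeR), beside 2.09% at an unadjusted p below 0.05 over all genes. The median log2 fold change was -0.03, against 0.01 over all genes tested, with 21 positive and 39 negative, beside 5885 positive and 5148 negative over all genes tested. The difference between these shares was not tested, here or for the single lists. The gene was *MTRR*, which reactivates methionine synthase in the cycle that supplies methyl groups. It ran from 8.74 to 15.6 CPM in the high group (median 10.4) and from 7.17 to 10.8 in the low group (median 8.27), and 7 of 7 high cows lay above the low median. Other genes of the lists had 7 of 7 high cows on 1 side of the low median at an unadjusted p up to 0.870 (edgeR). The share of all genes with such counts is not given, here or for the genes below. From edgeR, *MTRR* had a log2 fold change of 0.35 with a standard error of 0.16 (unadjusted p 0.0405, adjusted 0.998). It had 15.6 CPM in replicate 4 of the high group, and no gene of the lists had an unadjusted p below 0.05 without that cow. The study also lists *MTRR* among its differentially expressed genes from cows that include these, so it is not independent evidence.

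In the methyl donor cycle, *AHCY*, which clears the inhibitor S-adenosylhomocysteine, was the most abundant gene of the 7 lists, at 816 CPM ± 133 (SD, n = 7) in the high and 917 CPM ± 80.04 (SD, n = 6) among low cows. For *AHCY* the log2 fold change was -0.17, with a standard error of 0.12. *BHMT* of the same list had no count in any cow. Among partners of maintenance methylation, *PCNA*, the sliding clamp of replication, had the lowest log2 fold change, -0.24 (standard error 0.14, unadjusted p 0.0956 from edgeR), with 6 of 7 high cows below the low median. *UHRF2*, the relative of *UHRF1*, had the highest of that list at 0.12 (standard error 0.15), and *TRIM28* was the most abundant per kilobase. None of these passed the test.

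Among the other readers of methylated DNA, the most abundant per kilobase was *MBD3*, whose log2 fold change was 0.0023 with a standard error of 0.16. *ZBTB38*, a zinc finger reader, had 0.50 (standard error 0.30), with 25.4 CPM in replicate 4 of the high group and at most 10.4 CPM in the other cows. *KMT2A*, whose CXXC domain binds unmethylated CpG, had 0.33 (standard error 0.29), with 116 CPM in replicate 4 of the high group. Both were more than 2-fold above the median of the other cows in replicate 4, and 0 of the 60 genes were more than 2-fold below it.

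Of the 6 genes of 2-oxoglutarate supply and TET regulation, *IDH2* was the most abundant per kilobase (log2 fold change -0.11, standard error 0.13), and *IDH3A* had the lowest value, -0.20 (standard error 0.12), with 6 of 7 high cows below the low median. In base excision repair, 10 of 12 genes had negative log2 fold changes, between -0.21 for *GADD45B* and 0.09 for *NEIL1*, with *APEX1* the most abundant per kilobase at -0.08 (standard error 0.13). In the NuRD complex, the remodeller that methyl-CpG readers recruit, 8 of 11 were negative. *CHD4*, its ATPase, had -0.17 (standard error 0.11) with 7 of 7 high cows below the low median, a count that other genes of the lists reached too. *HDAC2* had 0.09 (standard error 0.13) and *MTA2*, the most abundant per kilobase, -0.08 (standard error 0.12). The *CXXC1* gene, the most abundant CXXC gene per kilobase, had the lowest value of its list, -0.04 (standard error 0.11). None of the genes named here other than *MTRR* had an unadjusted p below 0.05.

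Genes most alike to each member over the 13 cows are given as a description, from the 2 with the highest Pearson's r of log2 CPM among the other 11032 genes tested. They were *CKAP5* (r = 0.868) and *EIF4G1* (0.837) for *DNMT1*, *SNORD12* (0.893) for *DNMT3A*, and *PQLC3* (0.878) and *FCRL1* (0.863), an Fc receptor-like gene of B cells, for *DNMT3B*. *UHRF1* was nearest to *MACROD1* (0.869) and *HSPA12B* (0.846), and *TET1* to *MAST4* (0.909) and *MTX3* (0.886). For *TET3* they were *RAB14* (0.95) and *TET2* itself (0.934), for *TET2* *PGM2* (0.974) and *NUFIP2* (0.959), and for *TDG* *RAP1B* (0.974). The number of genes with r above 0.8 was 6 for *DNMT1*, 14 each for *DNMT3A* and *DNMT3B*, 10 for *UHRF1*, 24 for *TET1*, 650 for *TET2*, 220 for *TET3* and 1113 for *TDG*. Without replicate 4 of the high group, the last 3 numbers became 32, 7 and 652, and those of the other 5 genes lay between 3 and 28.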

How the data were processed

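Blood RNA of 13 cows, 1 library each, was analysed. The authors deposited counts of reads per gene name, not normalized. Per the file headers they were made with featureCounts v1.4.6-p3 on exons of Ensembl release 88 for UMD3.1, without a strand or paired-read setting, while the submitters' processing notes name STAR 2.7.3, Subread 1.6.5 and ARS-UCD1.2. Positions are those of the count tables. Exon length, another deposited value, gave levels per kilobase. Genes without a name share 1 entry (13.9% to 16.7% of the counts), which was left out. Groups are from the sample labels.

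From the counts, CPM was computed with TMM factors, as was its log2 with a prior count of 2, and groups were compared with edgeR 4.0.16 in R 4.3.3 (quasi-likelihood, robust, no covariates) after filterByExpr (minimum count 10, minimum total 15). Standard errors were taken from the fold change and F. DESeq2 1.42.0 and limma-voom (limma 3.58.1) were alternatives, beside other scalings, filters, covariates and each cow left out. The fits and the correlation tests (Python 3.11.15) were tested on simulated data. At these depths 3 counts are 0.107 to 0.272 CPM. Intervals of single cows cover counting error only.

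The named genes were the 9 members, in each pathway list the most abundant gene per kilobase, those with the highest and lowest log2 fold change and any at an unadjusted p below 0.05, and the 2 genes most alike to each member, of which some are not reported here. Members, lists and tests were chosen with earlier results of these data known. No sequence of these genes was used here.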

Additional observations from a re-analysis of the deposited data

Results flagged for a closer look

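Within each group, the highest and the lowest cow were set against the nearest of the others for 36 measures, by Dixon's limit at 95%, and 11 values lay beyond it in 72 groups of cows. Chance alone marks about 1 in 20 groups of independent values. These measures are not independent, since they come from the same libraries, and some pathway genes were named for the size of their fold change, so the count was not tested against chance. Of these, 8 belong to replicate 4 of the high group. In that cow *TET2* had 74.2 CPM (next high cow 23.6), *TET3* 18.2 CPM (next 8.36) and *TET1* 6.88 CPM (next 3.90). Of the other pathway genes, *ZBTB38* had 25.4 CPM (next 9.47), *KMT2A* 116 CPM (next 59.6) and *MTRR* 15.6 CPM (next 11.1). The same cow was far below the rest of its group for *CXXC1*, with 127 CPM (next 155), and for *MTA2*, with 332 CPM (next 456). *TDG* and *UHRF1* of that cow lay within the limit.

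In the low group, *TET1* stood apart in replicate 12, with 5.20 CPM (next 3.60), and *TET3* in replicate 11, with 9.40 CPM (next 7.43). The haemoglobin share of the counts was 0.815% in the high replicate 7 (next 0.262%), the cow with the lowest *TET2* and *TET3* and the highest *DNMT3B*.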

How the results depend on the processing

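Under 24 other settings of the fit, none of 192 fold changes, 8 per setting, was called at an adjusted p of 0.05 (smallest 0.893) and none had an unadjusted p below 0.05. An adjusted p of 0.1 called 0. Signs turned with the haemoglobin share as a covariate for *DNMT1* (0.036), *DNMT3B* (-0.33) and *UHRF1* (0.073), and with the first principal component as a covariate, added after the data were seen, for *TET1* (-0.085), *TET2* (-0.048), *TET3* (-0.075) and *TDG* (-0.057). With 1 cow left out, log2 fold changes lay between -0.080 and 0.037 for *DNMT1*, -0.16 (low replicate 9 left out) and -0.055 (high replicate 2 left out) for *DNMT3A*, -0.32 (high replicate 2 left out) and -0.14 (low replicate 13 left out) for *UHRF1*, -0.029 and 0.20 for *DNMT3B*, -0.12 and 0.25 for *TET1*, -0.11 and 0.56 for *TET2*, -0.11 and 0.30 for *TET3*, and -0.019 and 0.21 for *TDG*. The cause was not tested. *DNMT3B* was negative without the high replicate 7 (-0.029) or the low replicate 13 (-0.014), and *DNMT1* positive without the latter (0.037).

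The 1 pathway gene at an unadjusted p below 0.05 became 0 with limma-voom or the haemoglobin covariate, and 0 to 1 with 1 cow left out, with 0 without replicates 4 and 6 of the high group and 10, 12 and 13 of the low group. Without replicate 8 of the low group the 1 gene was *PCNA*, at -0.30 (unadjusted p 0.0372 from edgeR). The 3 correlated pairs became 0 by Spearman's rho, 1 after removal of the first principal component (r of *TET2* and *TDG* -0.0508), and 0 to 4 with 1 cow left out, where 0 was without replicate 4 of the high group. *TET2* and *UHRF1* joined after removal of the neutrophil minus T cell score (r = -0.689, adjusted permutation p = 0.0360). The 0 marker relations became 2 after removal of the first principal component, *DNMT3B* with B cells (r = 0.858) and *TET1* with eosinophils (r = -0.833). Over all genes, 231 at an unadjusted p below 0.05 became 348 with DESeq2, 414 without a filter and 120 with the haemoglobin covariate. RLE scaling and TPM gave the same order of levels. Both use the same exon lengths and differ only in a factor per cow, so the order within a cow could not change. No other exon length was tried. The groups hold different cows and no label matches them in pairs, so no paired analysis was possible. Depth limits *TET1* most, with 26 to 107 counts per cow.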
